A study of Mus musculus with 5 samples.

Results

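The genes described here are 6 regulators and markers of cartilage and tendon cells, Sox5, Sox6, Sox9, Scx, Mkx and Tnmd. They were picked by symbol, with earlier results of these data known. All 6 were found among the 27998 genes counted. They were followed in 41599 stromal cells, the connective tissue cells of the disc, out of 51688 cells retained from single cell RNA-seq libraries of the mouse temporomandibular joint (TMJ) disc, the fibrocartilage pad between the jaw condyle and the skull. There were 5 libraries, 1 per condition, all labelled as wild type C57BL/6 mice. The 4 untreated conditions were discs of mice aged 3 days (3 d), 3 weeks (3 w), 16 weeks (16 w) or 78 weeks (78 w). In the injured condition, the anterior band of the disc was punctured with a needle through an incision in the right cheek at 5 weeks of age, and the discs were collected 2 weeks later, at 7 weeks of age. The study's account of the injury model names Myh11-CreER+; Tm fl/- mice, whereas the label of the injured library gives wild type, so a difference of genotype cannot be told apart from injury if those mice were used. By the study's account those mice were given tamoxifen at 5 weeks of age, and only males of that line were used for lineage tracing. If they gave this library, tamoxifen cannot be told apart from injury either. The age of 78 weeks is that of the label, and the library's deposited name gives another age, in months. By the study's methods, male and female pups were pooled into 1 suspension at 3 d while the 3 later untreated ages were male (the sex of the injured mice is not given in the sources used here), so sex changes together with age between 3 d and the later ages. No uninjured or sham-operated library of 7 weeks was used here, so age and injury cannot be told apart in the injured discs.

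Sox9 encodes the transcription factor that commits mesenchymal cells to cartilage, and the related factors encoded by Sox5 and Sox6 act with it on the genes of the cartilage matrix. Scx encodes Scleraxis, a factor of tendon and ligament progenitors, and Mkx encodes Mohawk, a homeobox factor needed for normal tendon collagen. Tnmd encodes tenomodulin, a membrane glycoprotein of tendon and ligament cells that acts downstream of Scleraxis. Fibrocartilage shares features of cartilage and tendon, and cells that express Sox9 together with Scx are known as progenitors of the sites where tendon joins cartilage.

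On GRCm38 (mm10) with the GENCODE M21 annotation, Sox5 lies on chromosome 6 (143828425 to 144781977, minus strand), Sox6 on chromosome 7 (115470872 to 116038796, minus strand) and Sox9 on chromosome 11 (112782224 to 112787760, plus strand). Scx lies on chromosome 15 (76457452 to 76459458, plus strand), inside the span of Bop1 on the other strand, and Tnmd on chromosome X (133850980 to 133865577, plus strand). Sox5 overlaps 7 other annotated genes and Sox6 overlaps 2, most of them antisense, and whether the counting used strand is not given in the sources used here. RefSeq windows from 250 bases before to 50 bases after a transcription start were at hand for 3 of the 6 genes, Sox5, Sox6 and Tnmd. None was at hand for Sox9 and Scx, and the chromosome of Mkx was left out of the windows used. Those of Tnmd (chrX:133850758-133851057, plus strand) and Sox5 (chr6:143947057-143947356, minus strand) are shown. The Sox5 window lies at a start inside the gene and not at the 5′ end of its annotated span. Both were chosen because these genes moved the most between neighbouring ages in pooled stromal cells. The 2 genes were also found together in fewer cells than their single shares gave. Within groups of these cells (clusters 1 to 3, below), the step of Sox5 was smaller than that of Sox9. The windows are printed 5′ to 3′ from GRCm38.p6, with capitals at ACAAAG or ACAATG, the core letters bound by SOX proteins, on either strand.
Tnmd: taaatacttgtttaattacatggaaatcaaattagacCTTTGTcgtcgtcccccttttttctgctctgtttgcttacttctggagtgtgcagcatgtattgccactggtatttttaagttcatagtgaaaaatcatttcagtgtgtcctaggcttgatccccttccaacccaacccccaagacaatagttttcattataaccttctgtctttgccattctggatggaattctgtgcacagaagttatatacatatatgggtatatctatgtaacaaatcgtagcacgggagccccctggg
Sox5: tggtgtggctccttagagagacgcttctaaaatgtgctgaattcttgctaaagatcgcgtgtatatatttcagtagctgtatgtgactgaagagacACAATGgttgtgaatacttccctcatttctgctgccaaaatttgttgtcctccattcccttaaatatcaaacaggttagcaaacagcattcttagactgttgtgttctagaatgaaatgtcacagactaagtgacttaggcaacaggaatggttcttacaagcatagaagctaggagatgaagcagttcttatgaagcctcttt
Each of these windows held 1 match, and 28.6% of 32851 windows of the same length held at least 1. The E-box letters CANNTG, the kind of site that Scleraxis binds, had 0 matches in both windows and were found in 72.3% of the same 32851 windows. A match or its absence in these letters is a description of the window and says nothing of binding.

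The 5 libraries held between 8467 and 15169 cell barcodes, of which 19 to 39 were shared by any 2 libraries. The median cell held 7721 to 12496 UMIs (unique molecular identifiers, 1 per captured transcript) in the untreated libraries and 3299 UMIs in the injured library. Cells were grouped without using the 6 genes or the gene lists below, and 4 of 12 clusters were taken as stromal, in which 6 to 8 of 8 stromal fibroblast markers (Col1a1, Dcn, Lum, Pdgfra and others) were raised. The unnamed cluster 5 also carried 7 of these 8 markers, but it was shallow and led by haemoglobin and muscle genes, and was left out. Cluster 1 (18382 cells) was led by Coch, Angptl7 and Cytl1, cluster 2 (15661 cells) by Cytl1, Lcn2 and Ibsp, cluster 3 (7120 cells) by Pi16, Clec3b and Mfap5, and the small cluster 10 (436 cells) by the cell cycle genes Cenpf, Prc1 and Top2a. The 10 leading genes of clusters 1 and 2 held none of the stromal markers but Spp1 in the former, and Ibsp and Col2a1, markers of bone and cartilage cells, in the latter, so the comparisons are also given by cluster number. Cluster 3 made up 36.5% of stromal cells at 3 d and 8.75% to 11.8% in the other libraries, whereas cluster 2 made up 17.1% at 3 d and 38.1% to 48.7% elsewhere. Levels are given as CPM, the UMIs of a gene per 1000000 UMIs of the stromal cells of a library. With 1 library per condition there is no replicate check. The exact 95% intervals cover counting error only, and no p-values were computed. In these pooled counts, fewer expressing cells and less RNA per cell cannot be told apart.

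Sox9, the central factor of cartilage formation, was at 184 CPM at 3 d and 207 CPM at 3 w. It stood at 688 CPM at 16 w, at 725 CPM at 78 w and at 944 CPM (932 to 955) in the injured library. The levels therefore fell into a low pair of young discs and a high set of adult and injured discs, and no neighbours in this order had intervals of their ratio that held 1. The step from 3 w to 16 w was 3.33-fold (3.28 to 3.38), and it was present in each large stromal cluster, at 3.26-fold in cluster 1, 3.16-fold in cluster 2 and 2.23-fold in cluster 3. Between 3 d and 3 w the ratio was 1.12, with 0.89 in cluster 1, 0.90 in cluster 2 and 1.59 in cluster 3, so the small difference of the pooled cells was not shared by the clusters. When clusters 1 to 3 were given equal weight, that ratio was 0.98.

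Sox5 followed another course. Its level was 80.8 CPM (79.1 to 82.6) at 3 d, 328 CPM at 3 w, 281 CPM at 16 w, 279 CPM at 78 w and 169 CPM in the injured library. It was lowest in the newborn disc and highest at 3 w, 4.06-fold (3.97 to 4.16) above 3 d, and the levels at 16 w and 78 w did not differ beyond counting error (ratio 0.994, 0.976 to 1.01). Within clusters the step from 3 d to 3 w was 2.75-fold in cluster 1, 2.10-fold in cluster 2 and 2.03-fold in cluster 3. These are smaller than the pooled ratio, and Sox5 was highest in cluster 2 (202, 425, 387, 363 and 210 CPM from 3 d to the injured library), whose share of the cells changed over the same interval. With equal weight for clusters 1 to 3, the pooled ratio was 2.27.

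Sox6 stood at 42.5 CPM at 3 d, 84.4 CPM at 3 w, 118 CPM at 16 w, 113 CPM at 78 w and 60.8 CPM in the injured library. It was highest in the adult discs and lowest at 3 d, and the difference between 16 w and 78 w was small (1.04-fold, 1.01 to 1.07). The ratio of 3 w to 3 d was 1.99 in pooled cells but 1.18 in cluster 1, 1.32 in cluster 2 and 2.44 in cluster 3. Like Sox5, Sox6 was lower in cluster 3 (9.80 to 40.9 CPM) than in clusters 1 and 2 in every library. The lowest cluster 3 level was below all those of endothelial-like cells (12.9 to 25.5 CPM), taken below as a background for free RNA.

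Scx, the factor of tendon progenitors, was at 83.3 CPM at 3 d, 145 CPM at 3 w, 231 CPM at 16 w, 207 CPM at 78 w and 204 CPM in the injured library. The level was thus lowest in the newborn disc and highest at 16 w, and those at 78 w and in the injured library did not differ beyond counting error. Mkx was sparse, with 470 to 2511 UMIs per library, and stood at 15.1 CPM at 3 d, 22.3 CPM at 3 w, 23.8 CPM at 16 w, 16.7 CPM at 78 w and 16.9 CPM in the injured library. Its whole range was less than 2-fold, and the injured and 78 w levels could not be separated.

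Tnmd, the mature tendon marker, moved the most. Its level was 76.2 CPM at 3 d, 115 CPM at 3 w, 9.02 CPM (8.38 to 9.70) at 16 w, 20.8 CPM at 78 w and 82.1 CPM in the injured library. Growing and injured discs were therefore high and adult discs low, with no overlap of the intervals. The fall from 3 w to 16 w was 12.7-fold (11.8 to 13.8), and it was present in cluster 1 (from 191 to 14.7 CPM), cluster 2 (from 63.4 to 1.28 CPM) and cluster 3 (from 119 to 19.0 CPM). The cluster 2 level at 16 w was below the 3.15 CPM of endothelial-like cells, taken below as a background for free RNA. At 78 w Tnmd was 2.30-fold (2.11 to 2.51) above 16 w in pooled cells, at 3.06-fold in cluster 1 and 2.22-fold in cluster 3 but 1.08-fold in cluster 2. This ratio was 1.66 after every cell was thinned to 1000 UMIs and 1.96 when every cell had equal weight.

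**Figure D1:**
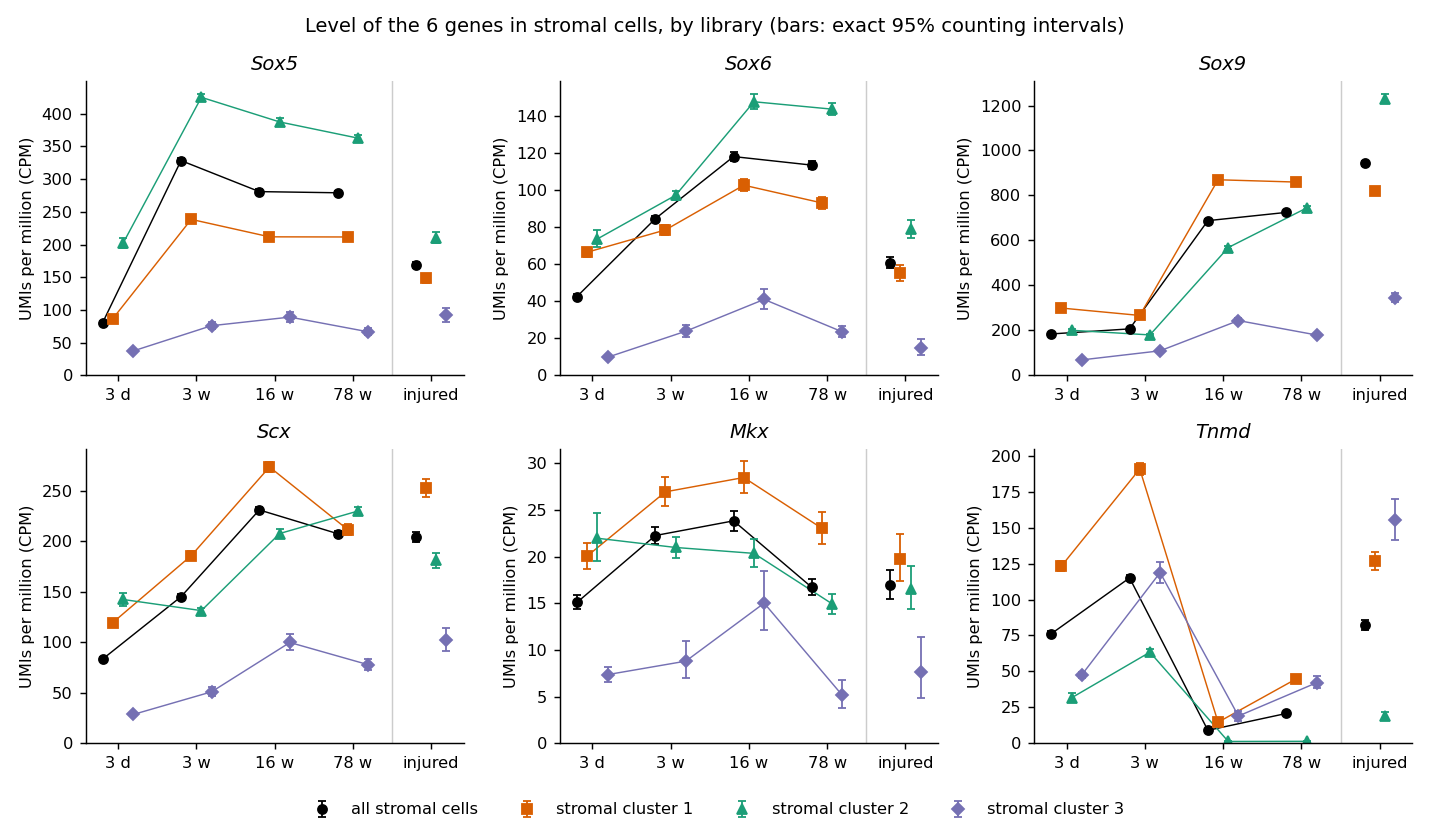
Level of each of the 6 genes by library, in CPM on a linear axis that starts at 0, in all stromal cells and in stromal clusters 1, 2 and 3, with exact 95% Poisson intervals for counting error (lines join the untreated ages). Sox9 steps up between 3 w (207 CPM) and 16 w (688 CPM), Sox5 between 3 d (80.8 CPM) and 3 w (328 CPM), and Tnmd is lowest at 16 w (9.02 CPM).

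The share of stromal cells with at least 1 UMI depends on depth, so it was also taken after thinning every cell to 1000 UMIs, which left out 42, 6, 10, 14 and 281 stromal cells of the 3 d, 3 w, 16 w, 78 w and injured libraries. Sox9 was detected in 53.4%, 68.5%, 81.4%, 83.7% and 75.7% of stromal cells as deposited, and in 15.2%, 16.7%, 36.4%, 40.2% and 48.1% after thinning. The injured library was thus below both adult libraries as deposited and highest at equal depth, as it was in CPM. Thinned shares of Sox5 were 8.05%, 24.8%, 21.1%, 21.9% and 14.1%, those of Sox6 4.15%, 7.23%, 10.5%, 9.52% and 5.85%, and those of Scx 7.66%, 12.4%, 17.1%, 15.6% and 16.4%. Thinned shares of Mkx reached at most 2.17%, too few cells to order the libraries. Tnmd was found in 17.9%, 31.1%, 4.56%, 5.27% and 13.5% of cells as deposited and in 5.14%, 9.35%, 1.15%, 1.46% and 5.77% after thinning.

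Free RNA gives UMIs in cells that do not express a gene, so the same shares were taken in endothelial-like cells, which should lack these factors. Their median depth was 1874 to 5749 UMIs, against 3603.5 to 13240 UMIs in stromal cells. After thinning, Sox9 was found in 3.38%, 1.76%, 6.50%, 4.02% and 12.6% of them, Sox5 in 1.02% to 2.57%, Scx in 1.24% to 3.07% and Tnmd in 0.00% to 1.36%. In CPM the pooled stromal cells stood above this background for all 6 genes in every library, at 2.86 to 8.74 times the level of the endothelial-like cells. The smallest of these ratios was for Tnmd at 16 w, where 9.02 CPM faced 3.15 CPM.

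**Figure D2:**
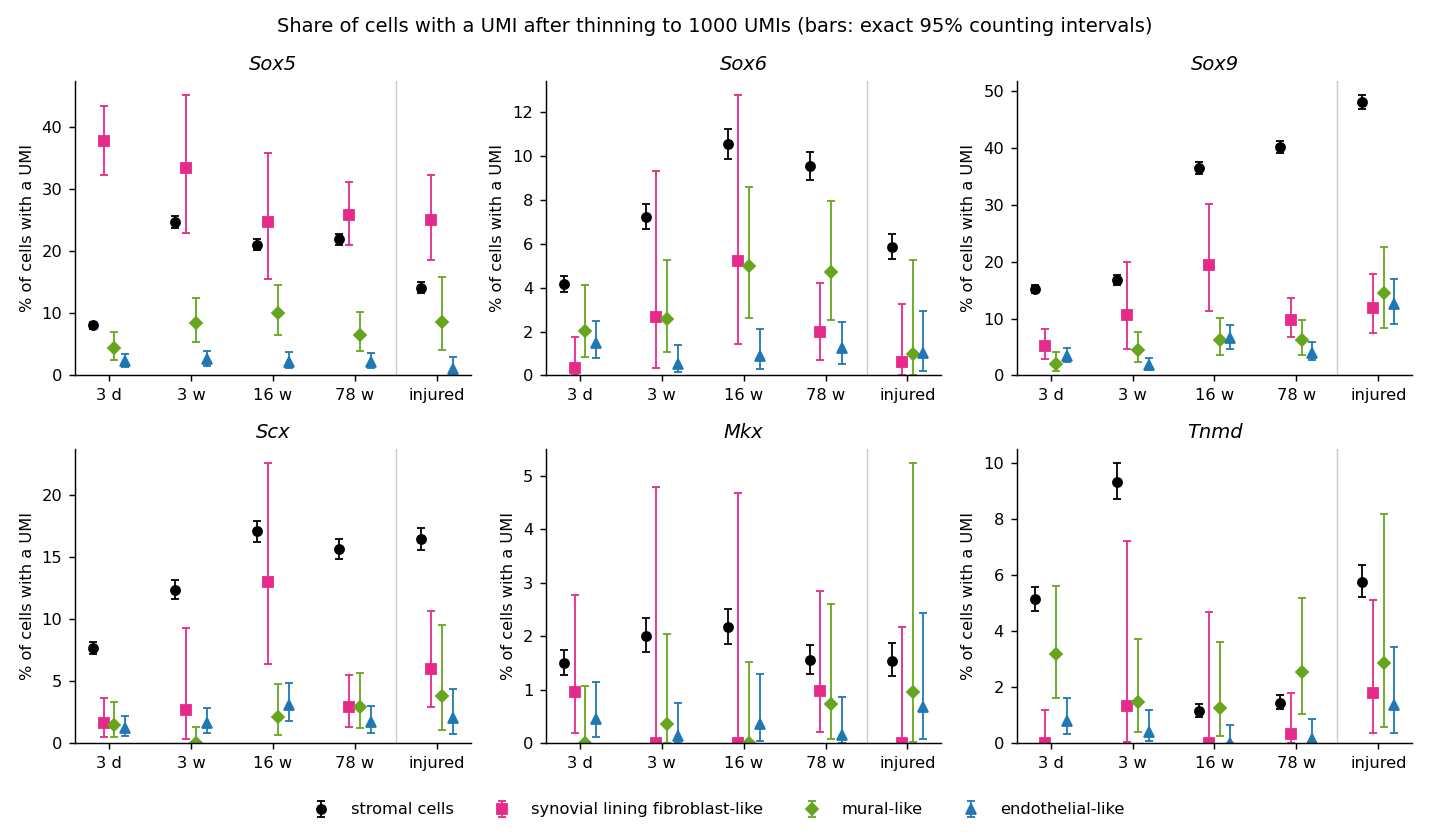
Share of cells with at least 1 UMI of each gene after thinning to 1000 UMIs, in percent, in stromal, synovial lining fibroblast-like, mural-like and endothelial-like cells of each library, with exact 95% binomial intervals. Stromal cells lie above endothelial-like cells for all 6 genes, synovial lining fibroblast-like cells hold the highest share of Sox5 at 3 d (37.7%), and the injured library has the highest share for Sox9 in both (48.1% and 12.6%).

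The spread of the UMIs over cells was also taken. The 5% of stromal cells with the most Tnmd UMIs held 69.3% of them at 3 d, 46.9% at 3 w, 100% at 16 w, 98.8% at 78 w and 71.2% in the injured library, and single cells reached 17 to 60 UMIs. For Sox9 the same 5% held 26.9% to 31.1%, and for Sox5 21.8% to 36.7%. This share rises as a gene gets sparser, and at 16 w fewer than 5% of cells had a UMI of Tnmd, which alone gives 100%.

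Across clusters 1 to 3, Sox9 was lowest in cluster 3 in every library (69.0, 109, 244, 180 and 345 CPM). It was highest in cluster 1 at 3 d, 3 w (267 CPM), 16 w (870 CPM) and 78 w (860 CPM), and in the injured library in cluster 2 (1230 CPM against 818 CPM in cluster 1). Tnmd was low in cluster 2 (31.7, 63.4, 1.28, 1.39 and 19.3 CPM) and higher in clusters 1 and 3, and in the injured library cluster 3 reached 155 CPM. In cluster 2 the levels at 16 w, at 78 w and in the injured library were not above those of endothelial-like cells (3.15, 2.52 and 19.4 CPM). Outside the stromal clusters, Sox5 stood highest among 957 synovial lining fibroblast-like cells, which line the joint cavity, at 445, 524, 464, 356 and 302 CPM. These cells held Tnmd at 1.95 to 22.0 CPM and Sox9 at 41.3 to 240 CPM, below the pooled stromal cells of the same library. Sox6 in Schwann-like cells, the glia of peripheral nerves, rested on 2 to 23 UMIs per library.

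Ratios between libraries were compared with those of all genes that had at least 100 UMIs in the library with more. Between 3 w and 3 d, 1 of the 6 genes was past 2-fold (Sox5, higher), where 35.2% of all genes were past 2-fold in either direction (16.2% higher and 18.9% lower). Between 16 w and 3 w, 2 of 6 were past it, Sox9 higher and Tnmd 12.7-fold lower, against 10.9% of all genes (5.16% higher and 5.73% lower). Between 78 w and 16 w, Tnmd alone was past it, on the higher side, against 3.37% of all genes (2.05% higher and 1.32% lower), and Sox5, Sox6, Sox9 and Scx had ratios of 0.994, 0.961, 1.05 and 0.898. Over the whole span from 3 d to 78 w, 5 of 6 were past 2-fold against 35.3% of all genes, of which 14.1% were higher and 21.2% lower. Sox9 was 3.93-fold, Sox5 3.45-fold, Sox6 2.67-fold and Scx 2.49-fold higher at 78 w, Tnmd was 3.67-fold lower, and Mkx had a ratio of 1.11. The median ratio of all genes from 3 d to 78 w was 0.887, below 1, whereas 5 of the 6 genes had ratios above 1. These comparisons share libraries and are not independent of each other.

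The change in the mix of clusters enters these ratios. With equal weight for clusters 1, 2 and 3, the 78 w to 3 d ratio was 3.13 for Sox9, 1.96 for Sox5, 1.74 for Sox6, 1.79 for Scx, 0.87 for Mkx and 0.44 for Tnmd. Sox9 and Tnmd thus stayed past 2-fold, and Sox5, Sox6 and Scx did not. By cluster number from 1 to 3, the ratio was 2.87, 3.71 and 2.60 for Sox9, 2.44, 1.80 and 1.78 for Sox5, 1.40, 1.95 and 2.40 for Sox6, 1.77, 1.61 and 2.73 for Scx and 0.364, 0.0438 and 0.885 for Tnmd. The 78 w level of Tnmd in cluster 2 was below that of endothelial-like cells. Markers of other cells also differed between the stromal cells of the libraries. The summed level of 6 erythroid markers was 1129 CPM at 3 d and 182 CPM in the injured library against 2.87 to 9.62 CPM in the others. That of 6 synovial lining markers, among them Prg4, was 246, 2891, 8180, 12235 and 3712 CPM from 3 d to the injured library. That of 6 osteoblast markers was 18.9 CPM at 3 d and 431 to 1898 CPM later, and that of 7 chondrocyte markers was 182 to 430 CPM in all libraries, with the cartilage marker Matn1 at 0 in all but the 3 w library. The part of these markers in the age ratios was not tested.

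**Figure D3:**
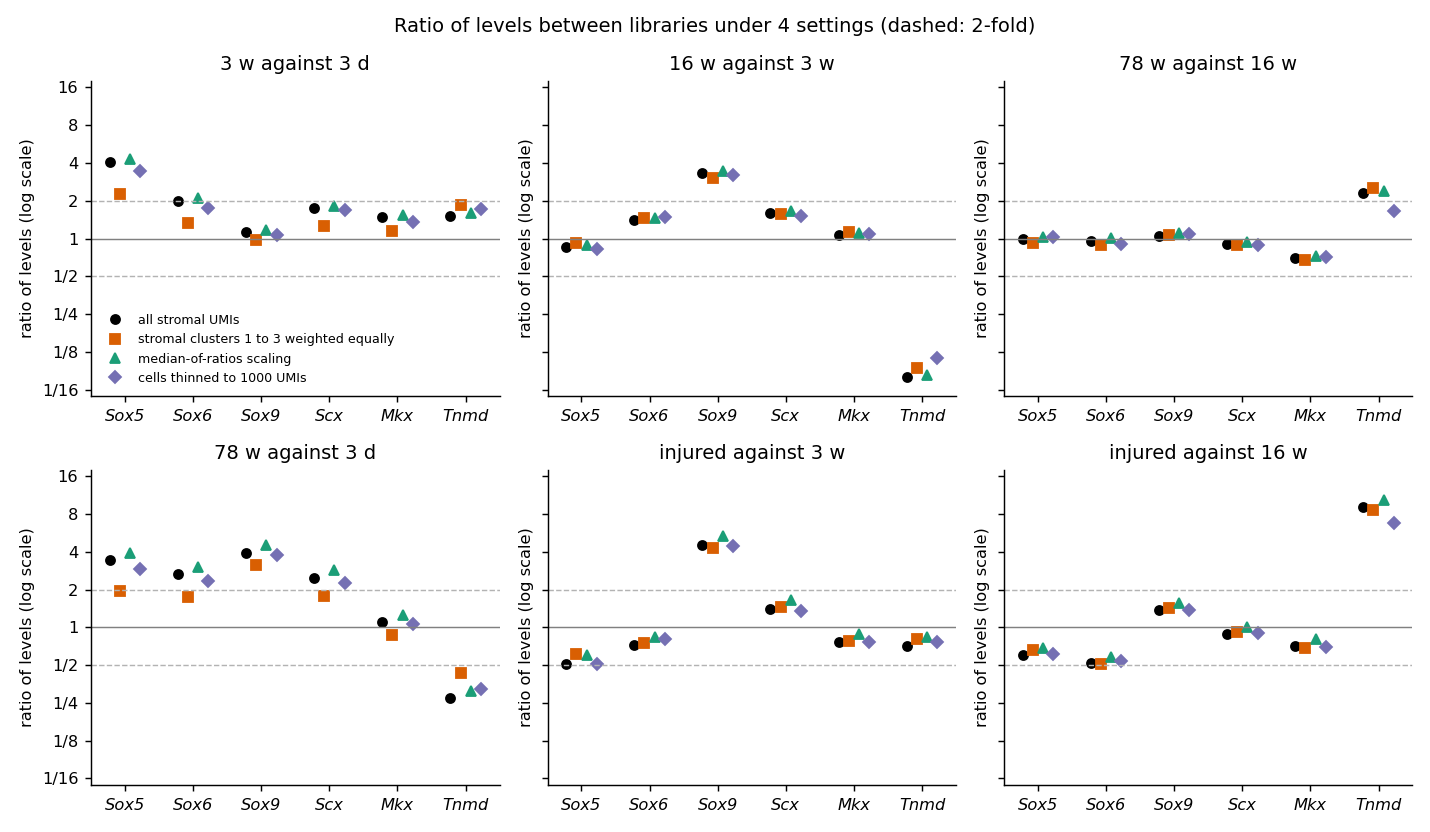
Ratio of levels between libraries for each of the 6 genes on a log axis, from all stromal UMIs, with clusters 1 to 3 weighted equally, with median-of-ratios scaling (which centres the genes common to all libraries) and with cells thinned to 1000 UMIs; solid and dashed lines mark ratios of 1 and of 2-fold. Sox9 lies above and Tnmd far below 2-fold for 16 w against 3 w in all 4 settings, whereas Sox5, Sox6 and Scx cross the 2-fold line for 78 w against 3 d with equal weights.

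The injured library was set beside the untreated ages below and above it. Against 3 w, 1 of 6 genes was past 2-fold, with 22.5% of all genes past it in either direction (4.97% higher and 17.5% lower). Sox9 was 4.56-fold higher (4.48 to 4.64), Scx had a ratio of 1.41, Mkx 0.760, Sox6 0.720, Tnmd 0.714 and Sox5 0.514. Against 16 w, 1 of 6 was past 2-fold, with 20.2% of all genes past it (5.69% higher and 14.5% lower). Tnmd was 9.10-fold higher (8.37 to 9.91), Sox9 had a ratio of 1.37, Scx 0.884, Mkx 0.710, Sox5 0.601 and Sox6 0.515. Sox9 in the injured library was thus above both of these ages, Tnmd was below 3 w and above 16 w, and Sox5 and Sox6 were below both. The median ratio of all genes was 0.774 against 3 w and 0.807 against 16 w.

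Within clusters, the injured library exceeded 3 w in Sox9 by 3.07-fold in cluster 1, 6.83-fold in cluster 2 and 3.15-fold in cluster 3. Against 16 w the ratios of Sox9 were 0.94, 2.16 and 1.41, so cluster 1 did not share the rise of the other clusters. Tnmd exceeded 16 w by 8.62-fold in cluster 1 and 8.18-fold in cluster 3, and in cluster 2 it stood at 19.3 against 1.28 CPM. Neither cluster 2 level was above that of endothelial-like cells in the same library (19.4 and 3.15 CPM), so free RNA cannot be told apart there. Against 3 w its ratios in clusters 1 to 3 were 0.66, 0.30 and 1.31. Sox5 was below 16 w in clusters 1 and 2 (0.70 and 0.54) but not in cluster 3 (1.03). Sox6 was below 16 w in all 3 clusters (0.54, 0.53 and 0.36). In cluster 3 of the injured library Sox6 was below the level of endothelial-like cells (20.5 CPM), so free RNA cannot be told apart there. The injured library was the shallowest, its endothelial-like cells had the highest thinned share of Sox9 (12.6%), and its stromal cells had a summed level of 8 macrophage markers of 115 CPM against 13.8 to 26.4 CPM in the others. The part of these values in the differences was not tested.

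Sox9 was found together with Scx in 23.4%, 41.9%, 53.4%, 53.9% and 33.0% of stromal cells as deposited, from 3 d to the injured library. Of the cells with Scx, 66.5%, 74.0%, 86.0%, 88.5% and 80.9% also had Sox9. Because deep cells show more of every gene, the expected share was built from the single shares within 10 strata of UMIs per cell. Observed over expected was 1.21 (1.17 to 1.25) at 3 d, and 1.01 (injured) to 1.05 (3 w) in the other libraries. As deposited, cells with both genes were thus common in all libraries, and outside 3 d their numbers were close to those built from the single shares. This depended on the setting. Among all settings the ratio reached 1.32 for 3 d and 1.18 for 3 w, with a lowest value of 1.03 in both. In the 16 w, 78 w and injured libraries its highest values were 1.09, 1.11 and 1.07, and its lowest 1.01, 1.01 and 0.99. Where most cells have Sox9, as in the adult libraries, a ratio with Sox9 has little room above 1. Its size can therefore not be compared between libraries. With strata formed within each cluster, the 3 d value was 1.03 against 1.21 without them, so most of the 3 d excess followed the split between clusters. After thinning, both genes were found in 1.35%, 2.47%, 6.29%, 6.98% and 8.28% of cells.

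Sox9 with Mkx gave 1.24, 1.06, 1.02, 1.04 and 1.01 in the same order, and the 3 d value was 1.07 with strata within clusters. Among all settings its highest values were 1.56, 1.25, 1.10, 1.28 and 1.10. Its lowest were 1.07, 1.03, 1.01, 1.01 and 0.93. Sox9 with Tnmd gave 1.09 at 3 d and 1.08 at 3 w, with intervals of 1.03 to 1.15 and 1.03 to 1.12. For the same pair the 16 w, 78 w and injured libraries gave 0.90 (0.80 to 1.02), 0.85 (0.76 to 0.95) and 0.95 (0.88 to 1.02). Of the 15 pairs of a Sox9 partner and a library, 12 were above 1, some as near to it as 1.01. This count is given without the share of other gene pairs above 1, so it is not read as a result about Sox9. The 3 pairs below 1 were all with Tnmd, in the 16 w, 78 w and injured libraries, where 2 of 3 intervals held 1. These intervals cover only the count of cells with both genes, and leave out that it is bounded by the number of cells with Tnmd. They can therefore not tell whether 0.90 and 0.95 lie within the spread of the ratio. With strata within clusters, the 78 w value of Sox9 with Tnmd was 0.92. That was the highest for 78 w among all settings, and the lowest was 0.60. For 16 w the lowest and highest were 0.82 and 0.96, and for the injured library 0.80 and 1.01.

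Among the other pairs, Sox5 with Sox6, the partners of Sox9, gave 1.43 at 3 d and 1.06 at 3 w. Both values are of pooled stromal cells without strata within clusters, and both genes were lower in cluster 3. Ratios of this pair within single clusters, at the adult ages and in the injured library are not listed in the text. The part of the mix of clusters in the pooled values was therefore not judged. All 3 of Sox5, Sox6 and Sox9 were found in 11.2%, 38.3%, 42.9%, 44.3% and 9.34% of cells as deposited, lowest in the injured library, the shallowest, and in 0.110%, 0.190%, 1.04%, 1.17% and 0.587% after thinning. Scx with Tnmd gave 1.17, 1.17, 1.18, 1.08 and 1.24, with 1.28, 1.49, 1.58, 2.02 and 1.48 after thinning. Tnmd with Sox5 went the other way in every library, at 0.74, 0.92, 0.63, 0.62 and 0.77 as deposited, and within cluster 1 at 0.70, 0.92, 0.64, 0.66 and 0.83. These genes whose windows are printed above were thus found together in fewer cells than their shares gave at each age.

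**Figure D4:**
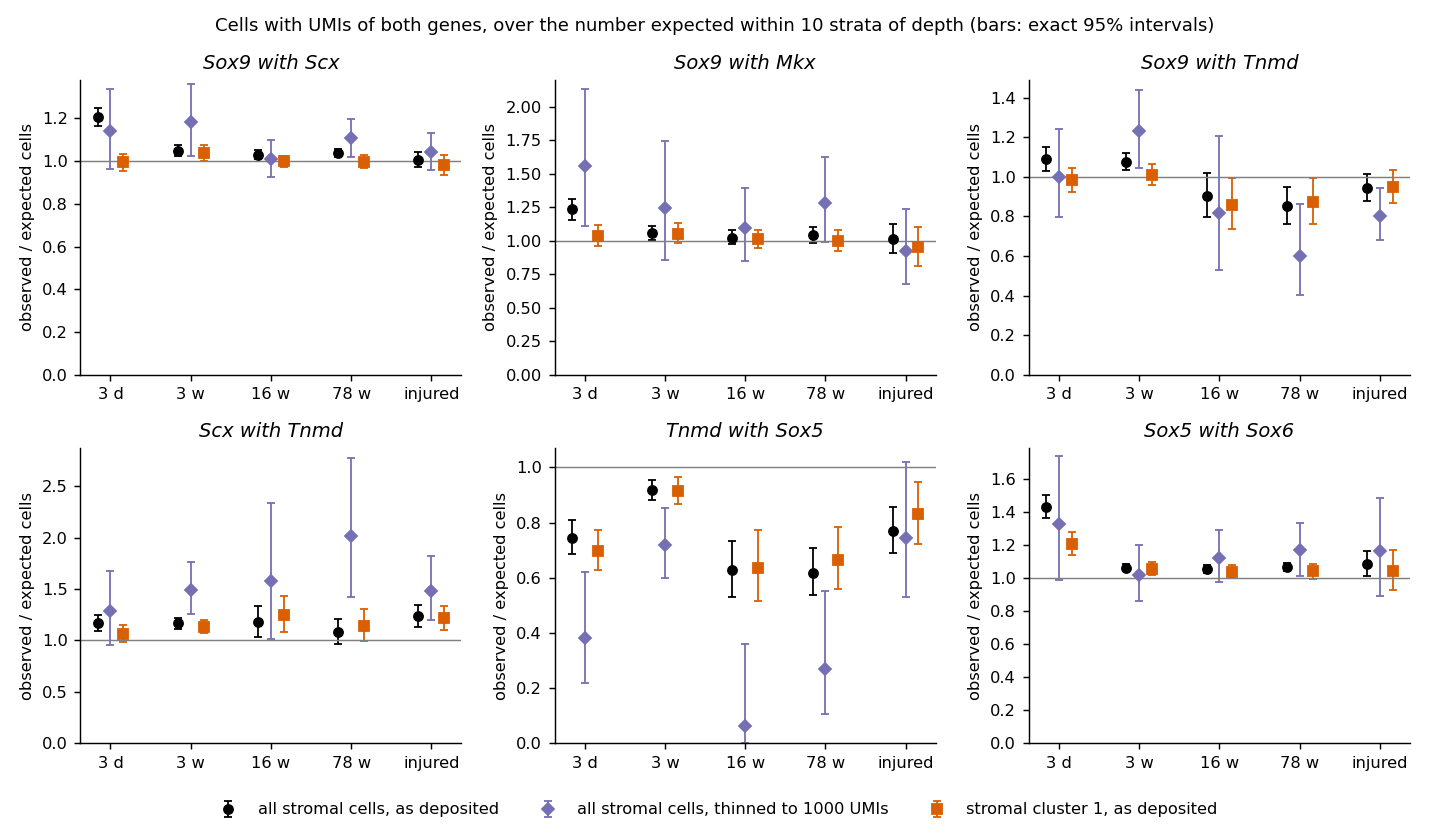
Share of stromal cells with both genes, observed over that expected within 10 strata of UMIs per cell, for 6 pairs of genes in each library, in all stromal cells as deposited, in the same cells thinned to 1000 UMIs and in stromal cluster 1, with 95% intervals for counting error and a line at 1. As deposited, values of Sox9 with Scx and Mkx are near 1 except at 3 d (1.21 and 1.24). Ratios with Sox9 have little room above 1 where most cells have Sox9, so their size cannot be compared between libraries. Values of Sox9 with Tnmd lie below 1 at 16 w, 78 w and in the injured library (0.90, 0.85 and 0.95). Those of Tnmd with Sox5 lie below 1 in all libraries.

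Stromal cells with at least 1 UMI of Tnmd numbered 1955, 2464, 350, 439 and 910. In these cells Sox5 stood at 45.9, 257, 141, 138 and 121 CPM, against 90.4, 365, 287, 287 and 179 CPM in stromal cells without Tnmd. Sox5 was thus lower in cells with Tnmd in each of the 5 libraries, with ratios of 0.48 to 0.70, and of 0.47 to 0.73 within cluster 1. Scx was higher in them in each library, at 98.3, 176, 408, 275 and 272 CPM against 79.3, 129, 223, 203 and 190 CPM, with ratios of 1.16 to 2.10 within cluster 1. For Sox9 the ratio was 1.03, 1.19, 0.84, 0.61 and 0.80 in pooled cells, but above 1 within cluster 3 in all libraries (1.21 to 1.40). The ratios of Sox5 and Scx within cluster 3 and of Sox9 within cluster 1 are not given here. Median depths of cells with and without Tnmd were 9933 and 8106 UMIs at 3 d, and 7680.5 and 9660 UMIs at 16 w, so the direction of the depth gap was not the same in all libraries.

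Cells with Sox9 but no Scx were also set beside cells with Scx but no Sox9. Col2a1, the main collagen of cartilage, stood at 9.34, 31.5, 109, 216 and 210.3 CPM in the former and at 12.7, 3.53, 10.9, 8.84 and 31.7 CPM in the latter. The cells with Sox9 alone were higher in Col2a1 in all but the 3 d library. This contrast was made in pooled stromal cells and not by cluster. Over the untreated ages, mean Col2a1 was 113 CPM in cluster 2, 7.73 CPM in cluster 1 and 4.75 CPM in cluster 3. The part of the mix of clusters in the contrast was not tested. Tnmd stood at 82.3, 94.2, 5.63, 12.0 and 52.6 CPM in cells with Sox9 alone and at 93.7, 118, 31.1, 84.8 and 198 CPM in cells with Scx alone, which were the higher in each library. Of the measured genes of a cartilage list, 1 of 14, 1 of 17, 6 of 14, 9 of 15 and 6 of 13 were at least 2-fold higher in the cells with Sox9 alone, against 1.77%, 0.619%, 0.57%, 0.947% and 1.07% of all genes in the same libraries. The median ratio of that list was 1.16 at 3 d and 2.22 at 78 w, and that of a tendon list was 0.947 and 0.707.

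The wider programme around the 6 genes was described from lists of cartilage genes, tendon genes and other regulators. From 3 d to 78 w, 10 of 18 measured cartilage genes were at least 2-fold higher and 4 at least 2-fold lower, with a median ratio of 3.62. Among all genes of this comparison 14.1% were higher and 21.2% lower, so the share of the list that was lower was close to that of all genes. Chad, which encodes the matrix protein chondroadherin, went from 11.6 to 2108 CPM, Comp, which encodes cartilage oligomeric matrix protein, from 54.7 to 8108 CPM, Prg4, which encodes the joint lubricant lubricin, from 111 to 11898 CPM, and Col10a1, the collagen of hypertrophic cartilage, from 0.0882 to 7.22 CPM. Prg4 is also among the markers by which the synovial lining fibroblast-like cells were named. The genes that fell were Cnmd, which encodes chondromodulin, from 18.5 to 0.220 CPM, Col9a2 from 21.1 to 0.397 CPM, Col9a1 from 2.57 to 0.430 CPM and Col9a3 from 58.3 to 16.4 CPM. The last 3 encode the chains of collagen IX, which coats cartilage collagen fibrils, and Sox9, which rose over the same span, did not share their direction.

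Of 15 tendon genes, 4 were at least 2-fold higher and 7 at least 2-fold lower at 78 w than at 3 d, against the same 14.1% and 21.2% of all genes, with a median ratio of 0.817. Fmod, which encodes fibromodulin, went from 284 to 4723 CPM, Dcn, which encodes decorin, from 3169 to 26282 CPM, Tnxb from 64.8 to 240 CPM and Thbs4 from 486 to 1065 CPM. Col1a1 and Col1a2, the chains of collagen I, fell 10.7-fold and 5.69-fold, Col12a1 5.61-fold and Col5a1 4.74-fold. The course of Col1a1 over all libraries was 9662, 12960, 935, 907 and 24395 CPM, high at 3 d, at 3 w and in the injured library and low in the adults, and the libraries high and low in Tnmd were the same, in another order. Against 16 w, 4 of 15 tendon genes were at least 2-fold higher and 2 at least 2-fold lower in the injured library, with 5.69% and 14.5% of all genes.

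**Figure D5:**
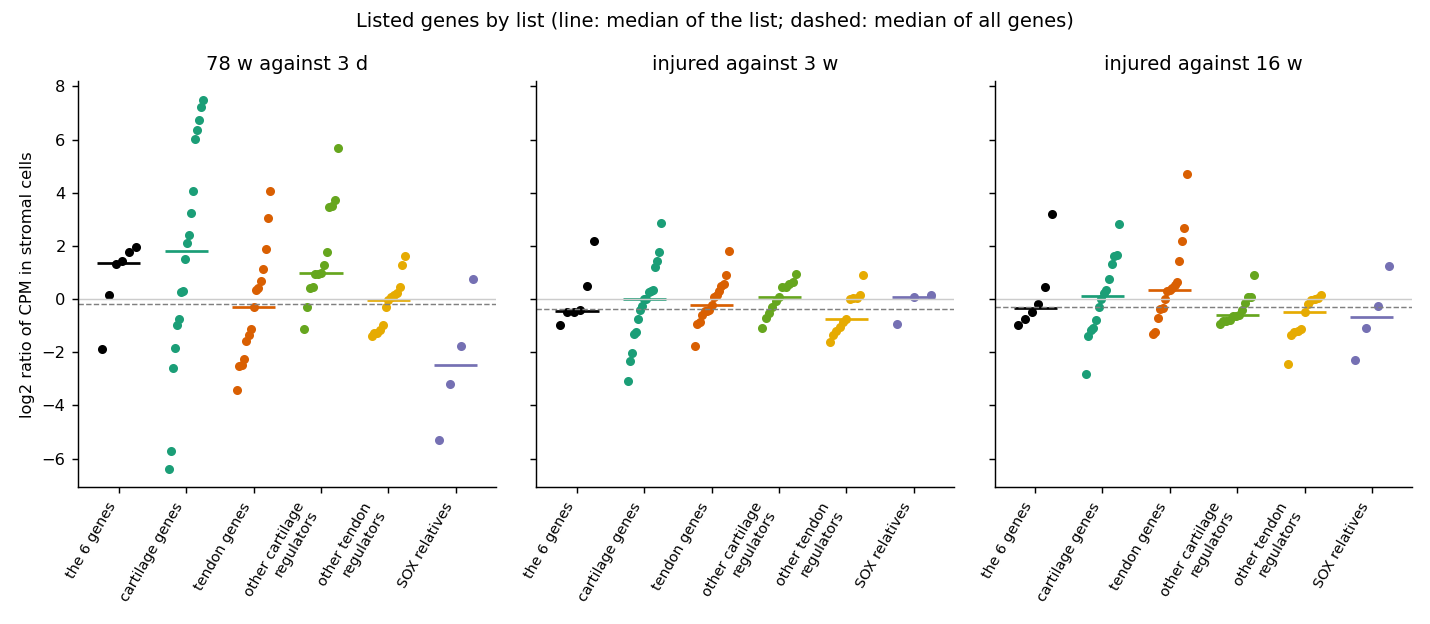
Log2 ratio of CPM in stromal cells for each measured gene of the 6 genes and of 5 lists (1 point per gene), for 78 w against 3 d and for the injured library against 3 w and 16 w, with a line at the median of each list and a dashed line at that of all genes. From 3 d to 78 w the cartilage list has a median ratio of 3.62, the 6 genes 2.58, the tendon list 0.817 and all genes 0.887.

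Among 13 measured other cartilage regulators, 6 were at least 2-fold higher and 1 lower at 78 w than at 3 d. Among all genes of this comparison, 14.1% were higher and 21.2% lower, which also holds for the tendon regulators and SOX relatives below. The counts of the tendon regulators are near these shares. Runx2, a factor of bone and hypertrophic cartilage, went from 1.20 to 16.0 CPM, Foxc1 from 10.2 to 116 CPM and Bmp2, a secreted signal of cartilage and bone, from 23.8 to 260 CPM. Foxa3 rested on few UMIs (0.0294 CPM at 3 d, ratio 51.4, 17.2 to 252), Barx1 fell 2.18-fold, and Pthlh had a ratio of 0.805. Of 13 other tendon regulators, 2 were higher (Tgfb1, from 18.1 to 56.2 CPM, and Smad3, 2.43-fold) and 4 lower (Eya2 2.63-fold, Nfatc4 2.43-fold, Egr2 2.42-fold, Egr1 2.24-fold), while Tgif1 and Tgfbr2 had ratios of 1.36 and 1.18. In the injured library, 4 of 11 were at least 2-fold lower than at 3 w and none higher, and 5 of 11 lower than at 16 w, in comparisons in which 17.5% and 14.5% of all genes were lower. Of 4 measured relatives of the SOX genes, 3 fell from 3 d to 78 w, Sox11 from 91.1 to 2.31 CPM, Sox12 from 14.5 to 1.58 CPM and Sox4 from 331 to 98.7 CPM, and Sox8 had a ratio of 1.68. These 3 relatives thus went down over the span in which Sox5, Sox6 and Sox9 went up in pooled stromal cells.

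Genes with the most similar profile were sought over 38 profiles of a cell class in a library, among 12749 genes, by Pearson's r of log2(CPM + 5). Of these profiles 16 were stromal and the rest were of other cell classes, so r also holds the difference between stromal and other cells. It was not taken within stromal cells alone. The profiles share libraries and cell classes, and r is given as a description. For Sox9 these were Scx (0.910), 1500015O10Rik (0.887) and Smoc1 (0.864), and for Scx they were Smoc1 (0.937), Sox9 (0.910) and Col8a2 (0.889), so Sox9 and Scx appeared on each other's list. Mkx was nearest to Col8a2 (0.891), 3632451O06Rik (0.861) and Fxyd6 (0.823). Sox5 was nearest to Anxa8 (0.913), Rabgap1l (0.892) and Aig1 (0.890), and Sox6 to Kcnma1 (0.888), Fgfrl1 (0.881) and Kcnmb4 (0.881). Tnmd was nearest to Cpxm1 (0.795), Col1a2 (0.789) and Col1a1 (0.768), the last 2 being the collagen I genes that share its high and low libraries.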

How the data were processed

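The deposited values were whole-number UMI counts per gene and cell from 10x Genomics 3′ libraries, which the authors aligned to mm10 and counted with Cell Ranger (version 3.1 per the labels, 4.0.0 per the file headers). TMJ discs had been dissected and digested with Pronase and Collagenase P. Cells of fewer than 200 UMIs or over 30% mitochondrial UMIs were dropped. Libraries were integrated and clustered with Seurat 5.3.0 (R 4.3.3, Matrix 1.6.5; 30 dimensions, 2000 features, resolution 0.2), with 84 symbols (the 6 genes and the gene lists) left out of the features. Clusters were named from marker lists, so the names are rebuilt and differences from the study may come from them. Clusters 5 (muscle and haemoglobin genes, shallow) and 11 were left unnamed. Scrublet (scanpy 1.11.5) marked almost no doublets and was not used, except that leaving out the 8% highest scores per library was one of the alternatives. Counts were summed over stromal clusters 1, 2, 3 and 10. A ratio was called past 2-fold where the library with more had at least 100 UMIs. Intervals were exact (Poisson, Clopper-Pearson, conditional binomial for ratios), computed with Python 3.11.15, numpy 2.4.6, scipy 1.17.1 and pandas 2.3.3, and plots with matplotlib 3.10.9. The steps were tested on simulated data.

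No test between conditions was possible with 1 library each, so values are given with counting intervals. Counts were summed at a depth of 3299 to 12496 UMIs in the median cell, which leaves the upper interval bound at most 9.46% above any level of the 6 genes (Mkx, injured). Named genes were the 6 genes, up to 4 genes per list and direction with the largest ratio between 3 d and 78 w and at least 100 UMIs, and the 3 genes of nearest profile for each. Col2a1, Matn1 and the leading genes of clusters were named after their values were seen. Nearest profiles were taken over profiles of at least 50 cells and genes of at least 500 UMIs. The 6 genes, lists and rules were chosen with earlier results of these data known. Alternatives were clusters without integration, a per-cell gate, other stromal definitions, stricter filters, thinning to 1000 UMIs, equal weights, median-of-ratios scaling and a 1.5-fold limit. Leaving out cluster 10 was added after seeing the data. Of 27998 gene identifiers, 27645 (98.7%) were in GENCODE M21, from which positions were taken.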

Additional observations from a re-analysis of the deposited data

Results flagged for a closer look

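Tnmd was higher at 3 w than at 3 d in stromal clusters 2 and 3 and lower in mural-like cells. In stromal cluster 2 the level at 3 w was 2.00-fold that at 3 d (1.81 to 2.22, 3935 and 418 UMIs), and in stromal cluster 3 it was 2.49-fold (2.31 to 2.69, 1052 and 2013 UMIs). In mural-like cells, the pericytes and smooth muscle cells of vessels, the ratio was 0.359 (0.266 to 0.480, 62 and 201 UMIs). At 3 w the mural-like level was below that of endothelial-like cells, which stood at 14.0 CPM at 3 d and 28.0 CPM at 3 w. Expression above free RNA is thus not shown for mural-like cells at 3 w. With 1 library per age the difference between stromal and mural-like cells was not tested.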

How the results depend on the processing

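Of 36 ratios of a gene between libraries, 32 kept their direction and 31 their side of 2-fold in all of 11 other settings. The direction was not kept by Sox9 (3 w against 3 d), Sox5 and Sox6 (78 w against 16 w) and Mkx (78 w against 3 d), all with ratios near 1, and the side not by Sox6 (3 w against 3 d), Tnmd (78 w against 16 w) and Sox5, Sox6 and Scx (78 w against 3 d). The number past 2-fold at 3 w against 3 d went from 1 to 2 with clusters made without integration, with synovial lining fibroblast-like cells counted in, with all retained cells and with median-of-ratios scaling, and to 4 at a limit of 1.5-fold. At 78 w against 16 w it went from 1 to 0 after thinning and with equal weight per cell. At 78 w against 3 d it went from 5 to 2 with equal weight for clusters 1 to 3. At a limit of 1.5-fold it went from 2 to 3 for 16 w against 3 w, from 1 to 2 for injured against 3 w and from 1 to 3 for injured against 16 w. The number of Sox9 pairs above expectation was 10 to 13 of 15 in all settings, again without a share of other gene pairs beside it. Leaving out cluster 10 changed no count. Causes of the other changes were not tested.

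Relative to CPM, median-of-ratios scaling moved all log2 ratios up, by 0.23 for injured against 3 w, 0.18 for injured against 16 w, 0.19 for 78 w against 3 d and under 0.1 in the other comparisons. Under it the injured to 16 w ratio of Scx was 1.00, of Sox9 1.55 and of Tnmd 10.3, and the injured to 3 w ratio of Sox9 was 5.35. No paired analysis was possible because each condition had 1 library. For the same reason no spread between animals is known, and sex (3 d), depth and operation differ along with condition. The low depth of the injured library limits its shares of Mkx, which rest on 470 UMIs.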
